A study of Equus caballus with 4 samples.

Results

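The genes described here are 9 complement components that mesenchymal cells are known to make or to carry: C1R, C1S, C2, C3, CFB, CFD, SERPING1, CD55 and CD59. They were chosen by name, and a probe was taken where the gene name in the array files equalled one of these symbols. This gave 5 of the 9 genes and 12 of 43603 different noncontrol probes on the array, beside 14591 genes with a symbol. The 5 genes were C1R, C1S, C2, CFB and SERPING1. A further 4 probes stood under a gene number that the RefSeq gene table pairs with CD55, and they are given apart from the rest as CD55 found by gene number. No probe was matched to C3, CFD or CD59, which were not analysed here.

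The study asked how gamma-oryzanol (GO), a mixture of plant sterol and triterpene alcohol esters from rice bran, acts on differentiating equine satellite cells, the precursor cells that form muscle fibers. Cells from the m. semitendinosus received 125 nM GO for 24 h and were taken on day 3 of differentiation, and control cells received the vehicle only. Both groups contained DMSO at 0.04 µl/ml. Each of 4 arrays on 1 slide held RNA of GO-treated cells labeled with Cy5 and RNA of control cells labeled with Cy3. The methods state that primary cultures from several horses were compared for viability and fusion, that a single best line was kept, and that the RNA samples of highest integrity were hybridized. The labels call the arrays biological replicates, and the methods also describe cells of each isolation plated in wells of their own. Whether the arrays came from separate animals is therefore not clear, and the p-values may measure only the spread between these samples. Since the dyes were not swapped, a difference between Cy5 and Cy3 in how a probe reads cannot be told apart from that between GO and control. With 4 arrays, the precision of the values is limited by their number.

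Complement is a cascade of plasma and cell surface proteins that marks microbes and damaged cells for removal. In the classical pathway, C1q binds a target and activates the proteases C1r and C1s, which cut C4 and C2. In the alternative pathway, factor B, the product of CFB, binds C3b and is then cut by factor D to form a convertase. C1 inhibitor, encoded by SERPING1, and membrane proteins such as CD55 hold these steps in check, and fibroblasts are known to make several of the components themselves.

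Between GO-treated and control cells, the C1 inhibitor gene SERPING1 and the factor B gene CFB were lower with GO. CD55 found by gene number was higher in the 2 of its 4 probes that were tested. Of 13 alternatives described below, the CFB probe passed the thresholds in 6, the SERPING1 probe in 13 and the CD55 probes in 11 and 10. Each tally includes the authors' table, which holds the same values as the array files. It therefore repeats the main fit and is no further check. The probes of the classical proteases C1R and C1S did not pass the thresholds. A probe is called here when its adjusted p (limma, Benjamini-Hochberg over all probes tested) was at most 0.05 and its mean ratio was at least 1.3-fold, a log2 ratio of 0.38 in size. By this rule 2 of the 11 probes tested under the members' own names were called, both lower with GO, beside 8.94% of all 26831 probes tested (2399 probes, 1505 lower and 894 higher). Counted as genes by their brightest probe, 2 of 4 members tested were called lower. Among 9498 named genes tested, 8.68% were called in either direction, 5.37% lower and 3.31% higher with GO. With CD55 added, 3 of 5 genes were called. These are counts over few genes, and nothing particular to complement can be read from them. A lower signal can mean fewer cells of a type or less RNA in each cell, and these cannot be told apart in bulk RNA.

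**Figure D1:**
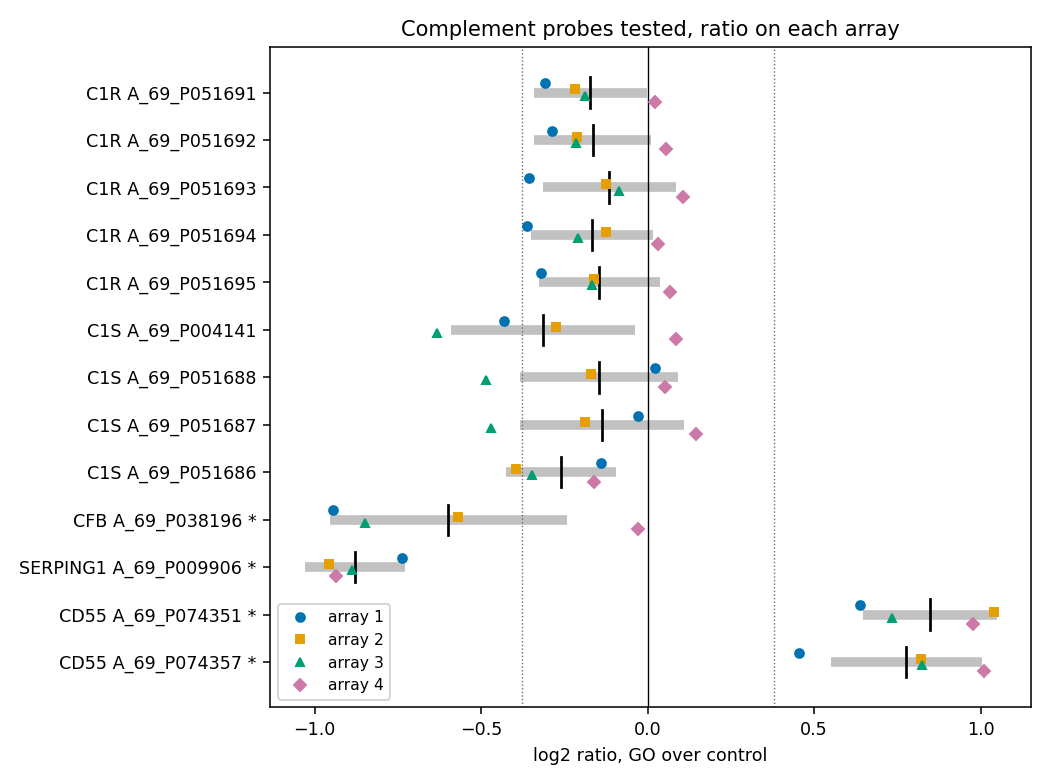
Log2 ratio of GO over control (horizontal axis) for each complement probe tested, with 1 symbol per array, the mean as a black bar and its 95% confidence interval from limma in grey. Dotted lines mark the 1.3-fold threshold and an asterisk a called probe; SERPING1 lies between -0.96 and -0.74 on all 4 arrays, whereas CFB has array 4 at -0.03, apart from the others.

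The classical proteases came first in the cascade. C1R was read by 5 probes shifted by single bases, which share 56 of their 60 bases and lie at chr6:34780186-34780249 on the minus strand (EquCab1), so they are close to repeat readings of the same stretch. The processed signal of the brightest, A_69_P051691, was 577, 428, 418 and 335 in control cells and 466, 368, 367 and 341 in GO-treated cells on arrays 1 to 4. GO was below control on arrays 1, 2 and 3 and slightly above it on array 4, and the groups overlapped. The log2 ratios were -0.31, -0.22, -0.19 and 0.02, with a mean of -0.17 ± 0.14 (SD, n = 4; limma adjusted p = 0.136). The other probes of C1R also had array 1 lowest and array 4 highest, while the order of arrays 2 and 3 differed between probes. Over the 5 probes the ratio ran from -0.36 to -0.29 on array 1, from -0.22 to -0.12 on array 2, from -0.21 to -0.09 on array 3 and from 0.02 to 0.11 on array 4. The means lay between -0.17 and -0.12 with adjusted p-values of 0.136 to 0.363, and 0 of the 5 probes were called.

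C1S, which is activated by C1r and cuts C4 and C2, had 4 probes. Of these, 3 overlap at chr6:34763654-34763754 on the plus strand and share 19 bases, and A_69_P004141 lies 7417 bases before them, at chr6:34756178-34756237. The nearest C1S and C1R probes are 16432 bases apart. The brightest C1S probe, A_69_P051688, had control signals of 198, 203, 146 and 107 and GO signals of 202, 181, 105 and 111 on arrays 1 to 4. The groups overlapped, with GO below control on arrays 2 and 3 and slightly above it on arrays 1 and 4. The log2 ratios were 0.02, -0.17, -0.49 and 0.05, a mean of -0.15 ± 0.25 (SD, n = 4; limma adjusted p = 0.337). The probe A_69_P051687 was similar, at -0.03, -0.19, -0.47 and 0.14 (mean -0.14, limma adjusted p = 0.386).

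The remaining C1S probes are further readings of the same gene. A_69_P051686 gave -0.14, -0.39, -0.35 and -0.16, below 0 on 4 of 4 arrays, with a mean of -0.26 ± 0.13 (SD, n = 4; limma adjusted p = 0.0456). It passed the p threshold but not that of 1.3-fold. Its adjusted p from limma was above 0.05 without array 1, 2, 3 or 4 (0.0516, 0.174, 0.158 and 0.0753), with normexp and loess (0.175) and with no filter (0.110), and ran from 0.0209 to 0.725 over its 13 alternatives. A_69_P004141 gave -0.43, -0.28, -0.63 and 0.08, with a mean of -0.31 ± 0.30 (SD, n = 4; limma adjusted p = 0.105). Its control signal was well above background on 4 arrays and its GO signal on 2. Without array 4 this probe passed both thresholds, at a mean log2 ratio of -0.45 (limma adjusted p = 0.0321). It also did with background-subtracted signals and no lowess, at -0.47 (limma adjusted p = 0.0224), and with normexp and loess its mean was -0.11. Over its 12 alternatives the adjusted p ran from 0.0224 to 0.659. Since it passed the filter through the control channel alone, these calls are no support for a lower level.

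C2, the component that C1s cuts to form the classical convertase, had a single probe at chr20:25004867-25004926. Its processed signals were 14.2, 20.5, 12.7 and 14.5 in control cells and 5.99, 12.0, 5.15 and 7.09 in GO-treated cells. Control was above GO on each array, but the probe was well above background in control cells on 1 array and in GO-treated cells on 0 arrays. It was therefore not tested, and no fold is given, since the signals lie near the background.

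CFB, the protease subunit of the alternative convertase, lies 7272 bases from the C2 probe, at chr20:25012198-25012257. Its control signals were 109, 87.3, 85.8 and 52.1 and its GO signals 56.7, 58.8, 47.6 and 51.1 on arrays 1 to 4. The control signal of array 4 was the lowest of the controls, and the groups overlapped through that array. The log2 ratios were -0.95, -0.57, -0.85 and -0.03. The mean was -0.60 ± 0.41 (SD, n = 4), a 1.51-fold lower ratio, with a 95% interval of -0.95 to -0.24 and a limma adjusted p of 0.0389. The call ended when array 1, 2 or 3 was left out, with limma adjusted p-values of 0.105, 0.112 and 0.126. Without array 4 it held, at a mean of -0.79 (limma adjusted p = 0.00826). With normexp background correction and loess the ratios were -0.10, -0.38, -0.45 and 0.01, and at a mean of -0.23 the call was lost (limma adjusted p = 0.0942). CFB was called in 6 of 13 alternatives, with adjusted p-values of 0.00826 to 0.251 over all of them. The 6 include the authors' table, which repeats the main fit.

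SERPING1, which encodes C1 inhibitor, the serpin that inactivates C1r and C1s, had 1 probe. It maps to the unplaced sequence chrUn:243407586-243408565, a span of 980 bases for a probe of 60. Its sequence is shown because it is the oligo behind the SERPING1 result, the member probe called under every alternative run.
SERPING1 A_69_P009906: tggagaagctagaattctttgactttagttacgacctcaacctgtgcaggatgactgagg

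The processed signal of this probe was 342, 459, 350 and 321 in control cells on arrays 1 to 4. In GO-treated cells it was 205, 237, 189 and 168. Every GO signal was below every control signal, and array 2 was the brightest in both channels. The log2 ratios were -0.74, -0.96, -0.89 and -0.94. The mean was -0.88 ± 0.10 (SD, n = 4), a 1.84-fold lower ratio, with a 95% interval of -1.03 to -0.73 and a limma adjusted p of 0.00145. The ratio was below 0 on 4 of 4 arrays, and the mean was larger than the spread between arrays. It was called under all 13 alternatives run for it, with means of -0.93 to -0.66 and adjusted p-values of 0.000707 to 0.0483. With normexp and loess its ratios were -0.22, -0.84, -0.74 and -0.82, so that array 1 lay nearest to 0.

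**Figure D2:**
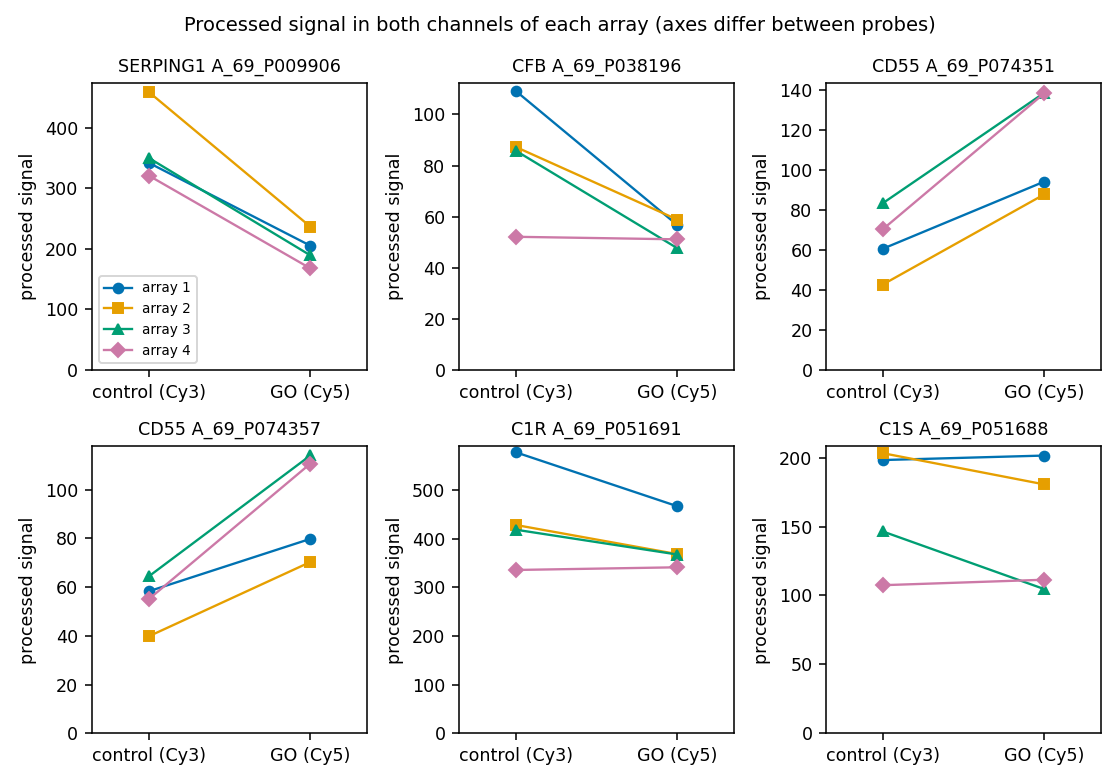
Processed signal (vertical axis, from 0, with a scale of its own for each probe) in the control channel and in the GO channel, with 1 line per array. The SERPING1 lines all fall and the CD55 lines all rise, whereas CFB falls on 3 arrays and stays level on array 4, where the control signal was 52.1.

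CD55, also called decay accelerating factor, is held on the cell surface and takes apart the convertases that form there. The gene number gave 4 probes, all on chr5 on the minus strand, and 2 of them were tested. Their sequences are shown because they are the oligos behind the CD55 result, the member probes called higher with GO.
CD55 A_69_P074351: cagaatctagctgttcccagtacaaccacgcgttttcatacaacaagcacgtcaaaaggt
CD55 A_69_P074357: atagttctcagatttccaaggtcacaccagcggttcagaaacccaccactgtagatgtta

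The first of these, at chr5:22024753-22024812, had control signals of 60.6, 42.7, 83.4 and 70.4 and GO signals of 94.3, 87.9, 139 and 139 on arrays 1 to 4. All GO signals were above all control signals, and array 2 was lowest in both channels. Its log2 ratios were 0.64, 1.04, 0.73 and 0.98, with a mean of 0.85 ± 0.19 (SD, n = 4; limma adjusted p = 0.00326), a 1.80-fold higher ratio.

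The second, at chr5:22025883-22025942, had control signals of 58.3, 39.8, 64.4 and 55.0 and GO signals of 79.8, 70.3, 114 and 111. Again the groups did not overlap and array 2 was the dimmest. The log2 ratios were 0.45, 0.82, 0.83 and 1.01, with a mean of 0.78 ± 0.23 (SD, n = 4; limma adjusted p = 0.0056), a 1.71-fold higher ratio. The probes do not overlap in sequence, and both were higher with GO on 4 of 4 arrays.

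The other CD55 probes were dim. A_69_P074352, at chr5:22024813-22024872, lies directly beside the called A_69_P074351. It was well above background in control cells on 3 arrays and in GO-treated cells on 2. Its signals were 30.3, 12.0, 23.6 and 22.3 in control cells and 26.4, 13.2, 25.6 and 25.3 in GO-treated cells, and the groups overlapped. A_69_P074356 was well above background on 0 arrays in either channel. Its signals were 8.56, 4.18, 6.07 and 14.1 in control cells and 6.57, 3.52, 4.61 and 6.76 in GO-treated cells, with GO below control on each array, unlike the probes called. Neither was tested, and no fold is given for them.

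With normexp and loess the means of A_69_P074351 and A_69_P074357 were 0.40 and 0.41 (limma adjusted p = 0.0230 and 0.0266), with array 1 at 0.06 and 0.03. The calls of both were lost with a plain one-sample test and with the channels taken as separate samples, and that of A_69_P074357 also with no filter on dim probes (limma adjusted p = 0.0568). Over the 13 alternatives the adjusted p ran from 0.00152 to 0.129 for A_69_P074351 and from 0.00203 to 0.110 for A_69_P074357. The plot of the mean under each way of processing sets these values beside those of SERPING1 and CFB.

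**Figure D3:**
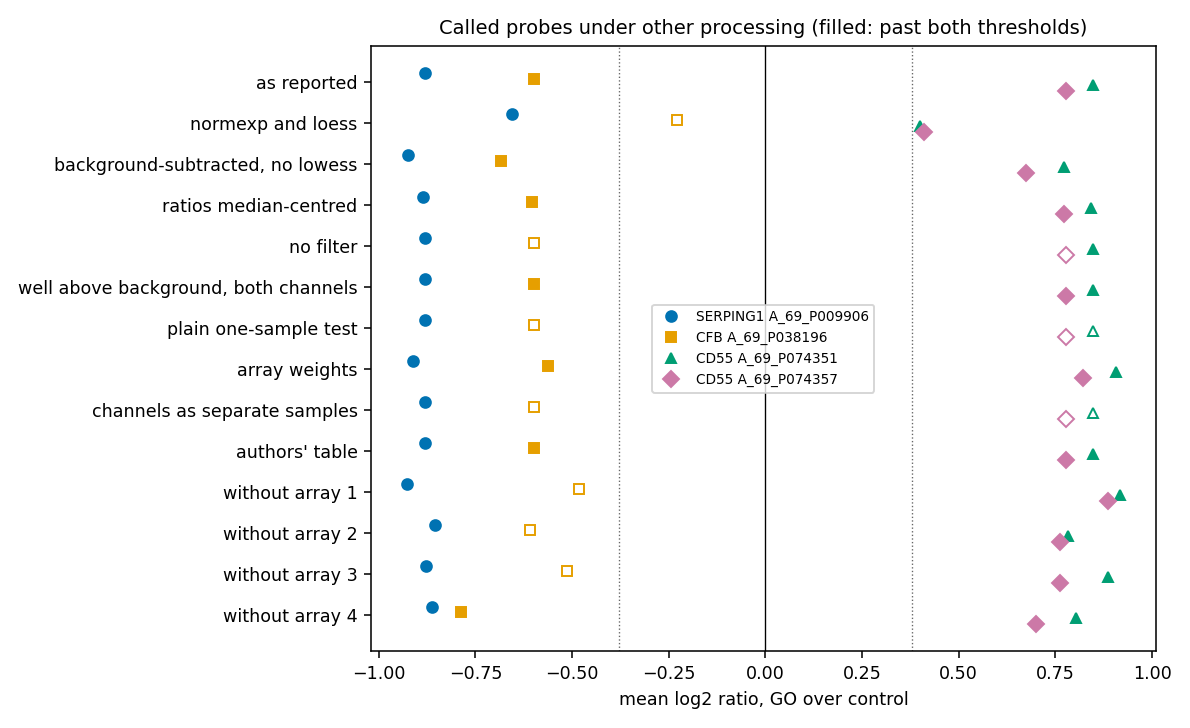
Mean log2 ratio of GO over control (horizontal axis) for the 4 called probes of members under each way of processing (vertical axis). Filled symbols passed both thresholds and open ones did not; SERPING1 is filled throughout, and CFB ranges from -0.79 to -0.23.

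The other genes of the complement system were read from a list of 54 genes, of which 37 had a probe and 9 had a brightest probe tested. Of these 9, 4 were called, 2 lower and 2 higher with GO, and their median log2 ratio was -0.26, beside 0.00 for all named genes tested. Among recognition subunits and initiators, C4A, a source of the C4 that C1s cuts, had ratios of -1.03, -1.11, -0.85 and -1.09 on arrays 1 to 4. Its ratio was below 0 on all arrays, with a mean of -1.02 ± 0.12 (SD, n = 4; limma adjusted p = 0.00114). Its GO signal was well above background on 3 arrays, so it passed the filter through the control channel alone. The call of C4A is therefore no support for a lower level, and the size of its ratio rests on the background correction. C1QC, a chain of the recognition molecule C1q, had ratios of -0.55, -0.43, -0.90 and -0.68. Its mean was -0.64 ± 0.20 (SD, n = 4; limma adjusted p = 0.00693). The call of C1QC ended with no filter (limma adjusted p = 0.0606), with the plain one-sample test and with the channels taken as separate samples.

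C1RL, a protease related to C1r, was higher with GO, at 0.20, 0.54, 0.46 and 0.62 (mean 0.45, limma adjusted p = 0.016). Its call ended without array 2 (limma adjusted p = 0.0739) or array 3 (limma adjusted p = 0.0593). It also ended with background-subtracted signals and no lowess (mean 0.32, short of 1.3-fold), with no filter (limma adjusted p = 0.0818), with the plain test and with separate channels. With normexp and loess, limma called 0 of these 9 genes, and 4 had an unadjusted p under 0.05; C4A then had a mean of -0.37 and C1QC of -0.30, both short of 1.3-fold.

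CLU, a soluble regulator of the membrane attack complex, had a mean log2 ratio of -0.29 (limma adjusted p = 0.0206) and did not reach 1.3-fold. Its direction turned with the processing: the mean was 0.31 with background-subtracted signals and no lowess (limma adjusted p = 0.0224) and -0.09 with normexp and loess (limma adjusted p = 0.259), so no direction is given for it. The regulators CFI (mean -0.26) and CFP (mean -0.01), the recognition gene FCN3 (mean -0.27) and the receptor CD93 (mean -0.11) were tested and not called. Without array 3, FCN3 passed both thresholds, at a mean of -0.44 (limma adjusted p = 0.0488), and CFI did so with background-subtracted signals and no lowess, at -0.43 (limma adjusted p = 0.0200). With normexp and loess both means were -0.06 (limma adjusted p = 0.503 and 0.436). The GO signal was well above background on 2 arrays for FCN3 and on 3 for CFI and CD93. None of the 6 terminal pathway genes or the 3 other membrane regulators with a probe was bright enough to be tested.

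**Figure D4:**
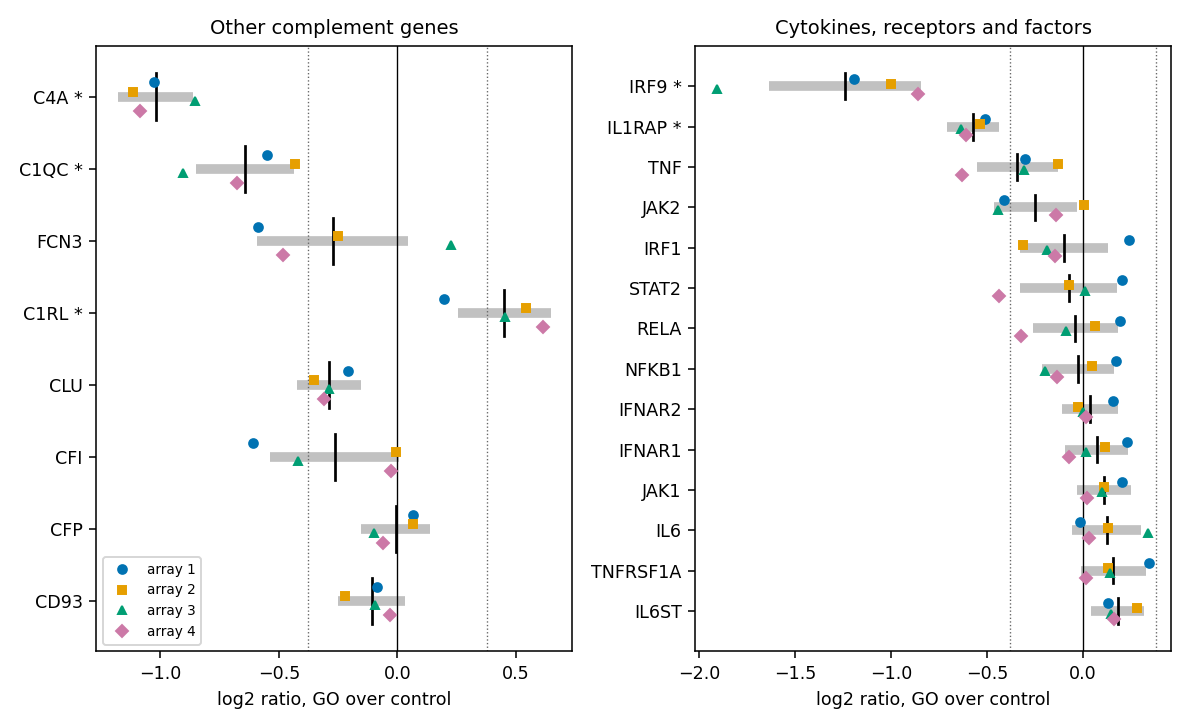
Log2 ratio of GO over control (horizontal axis) for other complement genes tested (left) and for cytokines, receptors and factors known to drive complement genes (right), not all of those tested, with 1 symbol per array, the mean as a black bar and its 95% confidence interval in grey. Asterisks mark called genes; C4A is lowest on the left at a mean of -1.02 and IRF9 on the right at -1.24.

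Complement genes are classical targets of interferons and of cytokines such as IL6, IL1 and TNF. Of 25 such cytokines, receptors and factors, 19 had a probe and 15 were tested, and 3 were called, all lower. IRF9, a transcription factor of the interferon response, was lowest on array 3 at -1.91 and highest on array 4 at -0.86 (mean -1.24, limma adjusted p = 0.00678), so it was below 0 on 4 of 4 arrays. The call of IRF9 ended with no filter (limma adjusted p = 0.0734), with the plain one-sample test and with the channels taken as separate samples. IL1RAP, a subunit of the IL1 receptor, had a mean of -0.57 ± 0.06 (SD, n = 4; limma adjusted p = 0.00326), with its GO signal well above background on 3 arrays, so that it too passed the filter through the control channel alone. With normexp and loess its mean was -0.16 and it was not called (limma adjusted p = 0.0707). The call of IL1RAP is no support for a lower level. TNF had a mean of -0.34 (limma adjusted p = 0.0424) and did not reach 1.3-fold, and IRF1 had a mean of -0.10 (limma adjusted p = 0.501).

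Interferon-induced genes were listed apart, since interferon drives several complement genes. Of 24 listed and 20 with a probe, 19 were tested and 17 called, all lower, and the list was chosen with results of these data known, so its direction is not independent evidence. Their median log2 ratio was -1.62, -1.30, -2.34 and -1.07 on arrays 1 to 4. On the same arrays CFB stood at -0.95, -0.57, -0.85 and -0.03, and SERPING1 at -0.74, -0.96, -0.89 and -0.94. The summed signal of the list was 147073, 76258, 239815 and 65316 in control cells and 42758, 31579, 50103 and 31490 in GO-treated cells, and the brightest probe in control cells was that of B2M on arrays 1, 2 and 4 and of ISG15 on array 3. Probes differ in how brightly they read, so this and the brightest probes of the marker lists give no order of RNA amounts. Among those well above background in both channels on all arrays, MX1 had a mean of -3.07, IFI44 of -3.05, IFI44L of -3.00, IFI35 of -2.07 and ISG15 of -2.00. The GO signals of IFIT3 and CXCL10 were well above background on 1 array and that of CXCL9 on 2, so the sizes of their ratios rest on the background correction. Their means were -3.01, -2.67 and -1.69, and -1.06, -1.01 and -0.61 with normexp and loess, whereas MX1 stood at -2.96 and IFI44 at -2.82 there. IFI44L stood at -2.42 with normexp and loess. GBP5, also well above background in both channels on all arrays, moved from -1.64 to -0.92. CIITA (mean 0.14) and CXCL11 (mean -0.51) were not called. The GO signal of CXCL11 was well above background on 1 array. The part of the interferon-induced genes in the ratios of the members was not tested.

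Markers of cell types were read beside the members. Of 12 muscle markers tested, 9 were called, all lower (MYF5, MYH8, MYH3, ACTA1, NCAM1, DES, CHRNA1, TNNC2 and MYOG). The summed signal of this list was 186932, 245653, 221680 and 181401 in control cells on arrays 1 to 4 and 140789, 150794, 128230 and 110505 in GO-treated cells, and its brightest probe was that of MYH3. Of 10 fibroblast markers tested, 1 was called by its brightest probe, PDGFRA, higher at a mean of 0.87 (limma adjusted p = 0.0198). Among dimmer probes of the markers not called, 2 of COL1A2 and 2 of POSTN were called lower and 1 of DCN higher. The summed signal of the 11 with a probe was 441873, 435372, 493547 and 320505 in control cells and 422933, 433494, 451590 and 336014 in GO-treated cells, with COL1A2 the brightest. The fibroblast sum, in which COL1A2 weighs most, was near that of control on each array, and the muscle sum was below it on each array.

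Of 13 leukocyte markers with a probe, 5 were tested and 1 called, CD74, lower at a mean of -2.23 (limma adjusted p = 0.00157). The GO signal of CD74 was well above background on 3 arrays, so it passed the filter through the control channel alone. Its call is no support for a lower level, and the size of its ratio is uncertain. The 13 markers' summed signal was 5584, 6365, 5670 and 5421 in control cells and 6557, 6536, 5889 and 5838 in GO-treated cells, with CD14 the brightest. CD3E, TYROBP, LAPTM5, CSF3R and MPO were not well above background in either channel on any array. Of the endothelial markers 2 of 9 were tested and 0 called, with ERG the brightest, and PECAM1, CDH5, VWF, KDR, TEK and ESAM were not well above background on any array. The summed signal of the 9 was 446, 365, 299.6 and 357 in control cells and 448, 394, 341 and 286 in GO-treated cells. Of the adipocyte markers 0 of 7 were tested, and ADIPOQ, FABP4, LEP, CIDEC and RETN were not well above background on any array. The summed signal of the 7 was 107, 95.5, 122 and 63.3 in control cells and 122, 117, 154 and 62.4 in GO-treated cells, with LPL the brightest in control cells on arrays 1 to 3. The part of muscle and other cell types in the complement ratios was not tested. Of 7 reference genes, B2M, itself interferon-induced, was called lower (mean -1.21), and GAPDH, ACTB, HPRT1, PPIA, RPLP0 and TBP were not, with means of -0.08 to 0.11.

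Genes near the members were counted by the positions in the files. Within 200 kb of the C1R and C1S probes, 11 other named genes were tested, with a median log2 ratio of 0.11, and 2 were called, both higher: PHB2 (mean 0.48, limma adjusted p = 0.0152) and C1RL. Within 200 kb of the C2 and CFB probes, 19 were tested, with a median of 0.01, and 1 was called, C4A, lower with GO. As said above, C4A passed the filter through the control channel alone. Near CD55, the 11 other probes carried no symbol, and the neighbours of SERPING1 were not looked up on the unplaced sequence. Among 9497 other named genes, the ratios most like those of SERPING1 over the 4 arrays, by mean absolute difference in log2 ratio, were those of IL32 (0.09), TGFB2 (0.09) and CCND2 (0.10), with mean log2 ratios of -0.95, -0.84 and -0.80.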

How the data were processed

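Horse 4 × 44K arrays were scanned and processed by the authors with Feature Extraction (version 10.10.1.1 per the file headers; the methods name another version). The log10 ratios deposited by the authors are those of processed Cy5 over Cy3 signal after linear and lowess dye normalization, and all 180880 values of the authors' table equal those of the array files within 1e-09. The deposited intensity values are raw, background-subtracted and processed signals. Other deposited columns are flags, among them that of a spot well above background. In each control channel 63.5 to 68.9% of noncontrol spots were well above background, and in each GO channel 57.4 to 67.0%.

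Ratios were converted to log2, the 1417 control spots and the outlier spots (10 to 19 per array) were left out, and repeated spots were averaged. A probe was tested if its control channel, or its GO channel, was well above background on all 4 arrays, 26831 in all, with limma (version 3.58.1, R 4.3.3): lmFit on an intercept and eBayes, two-sided, with Benjamini-Hochberg adjustment over all probes tested. The adjusted p of 0.05 and the 1.3-fold threshold are those of the methods, which name no test. A gene was read by its brightest probe. Symbols came from the files for 24962 probes, and 1684 were named by gene number and 431 by accession from RefSeq, used for names only; 16526 had none. Positions are those of the files (EquCab1). All arrays lay on 1 slide, so no slide effect could be fitted. The fit was tested on simulated data. The versions of data.table and matplotlib were 1.17.8 and 3.10.9. In the table of the authors, 0 columns were unmatched.

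Named were all members with every probe, called genes of the other lists (up to 8 per list by size) with the uncalled ones the text counts, the brightest and the called markers, the reference genes, called neighbours within 200 kb and the 3 genes most like SERPING1. Some genes that this rule names, though counted in their lists, are not reported here. The members and lists were chosen with earlier results of these data known. Alternatives were normexp (offset 50) with loess, no lowess, median centring, other filters, a plain one-sample test, array weights, the channels as separate samples, each array left out, the authors' table, the mean of all probes of a gene, no fold threshold and naming by gene number; the last, for member genes, and all alternatives for single genes of the other lists were chosen after seeing the data.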

Additional observations from a re-analysis of the deposited data

Results flagged for a closer look

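In 126 groups of 4 arrays, 4 had an array far from the others (gap over range above Dixon's 95% critical value), and chance marks about 1 in 20 such groups. The control signal of C1S A_69_P004141 was 40.1 on array 2, above the other arrays. The GO signal of the dim CD55 probe A_69_P074352 was 13.2 on array 2, below the others. The log2 ratio of PSMB8 was -0.92 on array 3, a larger fall than elsewhere, and that of ACTB was 0.19 on array 1, where the other arrays were below 0.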

How the results depend on the processing

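Of 168 values of member probes under the alternatives, 154 kept their direction and stayed called or not called, 12 lost the call, 2 gained it and 0 reversed. SERPING1 kept its call in all 13, of which the authors' table repeats the main fit. Of 548 values of single genes in the other lists, 77 lost the call, 4 gained it and 10 changed sign, none of them called in either case. CLU went from -0.29 to 0.31 with background-subtracted signals and no lowess, past the p threshold in both, and IL6 from 0.12 to -0.041. CFP stood at 0.0069 with normexp and loess. With an array left out, the ranges that crossed 0 were -0.032 to 0.023 for CFP, -0.0035 to 0.059 for IFNAR2, -0.093 to 0.030 for NFKB1, -0.12 to 0.056 for RELA and -0.17 to 0.048 for STAT2. All probes called (2399) became 1297 with normexp and loess, 908 with no filter, 147 with the plain one-sample test, 370 with the channels as separate samples and no replicate block, and 4859 with no fold threshold. With arrays left out in turn the count was 1566 to 2430, lowest without array 2. The fit with separate channels leaves out their pairing by array.

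Member probes called (2) became 1 with normexp and loess, 1 with the plain test, 1 without the replicate block, 4 with naming by gene number and 1 to 3 with an array left out. Member genes called (2) became 1 with normexp and loess, with the plain test and without the replicate block, and 1 to 2 with an array left out. Other complement genes called (4) became 0 with normexp and loess (limma, 4 at an unadjusted p under 0.05), 1 with no filter, 1 with the plain test, 1 without the replicate block and 2 to 4 with an array left out. Inducer genes called (3) became 1 with the plain test and 0 without the replicate block (limma, 3 at an unadjusted p under 0.05), and 2 to 3 with an array left out. Interferon-induced genes called (17) became 6 with no filter, 0 with the plain test (15 at an unadjusted p under 0.05; limma called 17), 6 without the replicate block and 14 to 17 with an array left out. For these values the cause was not tested. Naming by gene number for member genes (3 called), and the alternatives for single genes of the other lists, were chosen after seeing the data. Signal over background limits what can be read from C2, C1S A_69_P004141 and the dim CD55 probes; for CFB it was 3.56 to 4.98 in control cells and 2.08 to 3.58 in GO-treated cells, and for SERPING1 13.4 to 14.7 and 5.92 to 9.41.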
